A study of Mus musculus with 8 samples.

Results

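The genes described here are the immunity-related GTPase (IRG) genes Irgm1, Irgm2, Igtp, Iigp1, Ifi47, Tgtp1 and Tgtp2, and Gvin1, which encodes a giant GTPase of a separate family. They were chosen by name, as the rows of the count table whose GENCODE symbol is on that list, and the rule sets no threshold on a measured value. All 8 were found among the 55385 genes of the table, and all 8 were among the 17537 that passed the filter on low counts. GENCODE annotates each as protein-coding, and the table lists them as ENSMUSG00000046879 (Irgm1), ENSMUSG00000069874 (Irgm2), ENSMUSG00000078853 (Igtp), ENSMUSG00000054072 (Iigp1), ENSMUSG00000078920 (Ifi47), ENSMUSG00000078922 (Tgtp1), ENSMUSG00000078921 (Tgtp2) and ENSMUSG00000045868 (Gvin1). The libraries were made from polyA RNA of primary cultured microglia, the resident macrophages of the brain. The cells came from the neocortex and hippocampus of newborn wild-type mice, and brains were pooled within a culture. Microglia were shaken off the mixed culture and replated. The 4 control libraries came from microglia left untreated, described in the study's methods as treated with PBS. The 4 IgG libraries came from microglia exposed to mouse IgG at 10 µg/ml for a period of 24 h from day 15 in vitro. Each IgG library has a date in its label, and the control library with that replicate number has the same date, which gave 4 pairs. The comparison asked how IgG changed the microglial transcriptome.

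IRG proteins are GTPases that interferons induce in mouse cells. They act against bacteria and protozoa that live inside vacuoles. The effector proteins Iigp1 (Irga6), Ifi47 (Irgd) and Tgtp1 and Tgtp2 (Irgb6) gather on the membrane of the vacuole around a parasite and help to break it open. The regulatory proteins Irgm1, Irgm2 and Igtp (Irgm3) sit on the membranes of the cell's own organelles and keep the effectors inactive there. Gvin1, also called very large inducible GTPase 1, is induced by interferons as well, and its role is poorly known. In macrophages, to which microglia are related, the family belongs to the interferon-stimulated genes.

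Every member had a higher mean level with IgG than without. Irgm1, Irgm2, Igtp, Iigp1 and Ifi47 were higher with IgG in all 4 pairs, as were 10.4% of all genes tested. Tgtp1, Tgtp2 and Gvin1 were higher in pairs 1, 2 and 3 and lower in pair 4, where Gvin1 turned to 0.11 on the log2 scale once GC content and exon length were corrected for. Without the pairing, the log2 fold changes of the members ran from 0.57 for Irgm2 to 0.97 for Iigp1, with a median of 0.71, where the median over all genes tested was 0.00. No member met the study's criterion in this test, an unadjusted p under 0.01 with an absolute log2 fold change above 0.5. On the higher side, 0.582% of genes met it. The study's own gene ontology listing of differentially expressed genes does name Irgm1, Irgm2, Igtp, Iigp1 and Ifi47. Its methods state no block, and the fit behind that listing may differ from this one. No member had an adjusted p under 0.05 in edgeR's quasi-likelihood test, and neither did any other gene (0.0% higher with IgG). An unadjusted p under 0.05 was found for 2 members, Irgm1 and Iigp1, and for 7.01% of all genes. DESeq2 and edgeR's likelihood ratio test also left 0 members past adjustment, although they called 53 and 43 of all genes. For none of the 8 members did every IgG library exceed every control library, as was the case for 2.6% of genes.

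With the replicate number as a block, the difference was measured within each pair. The 4 members Irgm1, Irgm2, Igtp and Ifi47 then met the criterion, which 1.48% of all genes met on the higher side. Irgm1, Igtp and Ifi47 also rose at an adjusted p under 0.05, as did 0.393% of genes. With the same block, DESeq2 and edgeR's likelihood ratio test also passed Irgm2, at an adjusted p of 0.0175 and 0.00252, and thus 4 members each, but they passed more of all genes, 1.21% and 1.6% on the higher side. The criterion was met by 4 and 5 members in these tests, beside 1.55% and 1.98% of genes. The median log2 fold change of the 8 members was 0.57 in this fit, against -0.01 over all genes tested. The log2 estimates with and without the block differed by little for the first 5 members, whereas their standard errors fell from 0.28 to 0.10 for Irgm1 and from 0.48 to 0.10 for Ifi47. As the plot of the levels shows, dates with a high control library also had a high IgG library.

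**Figure D1:**
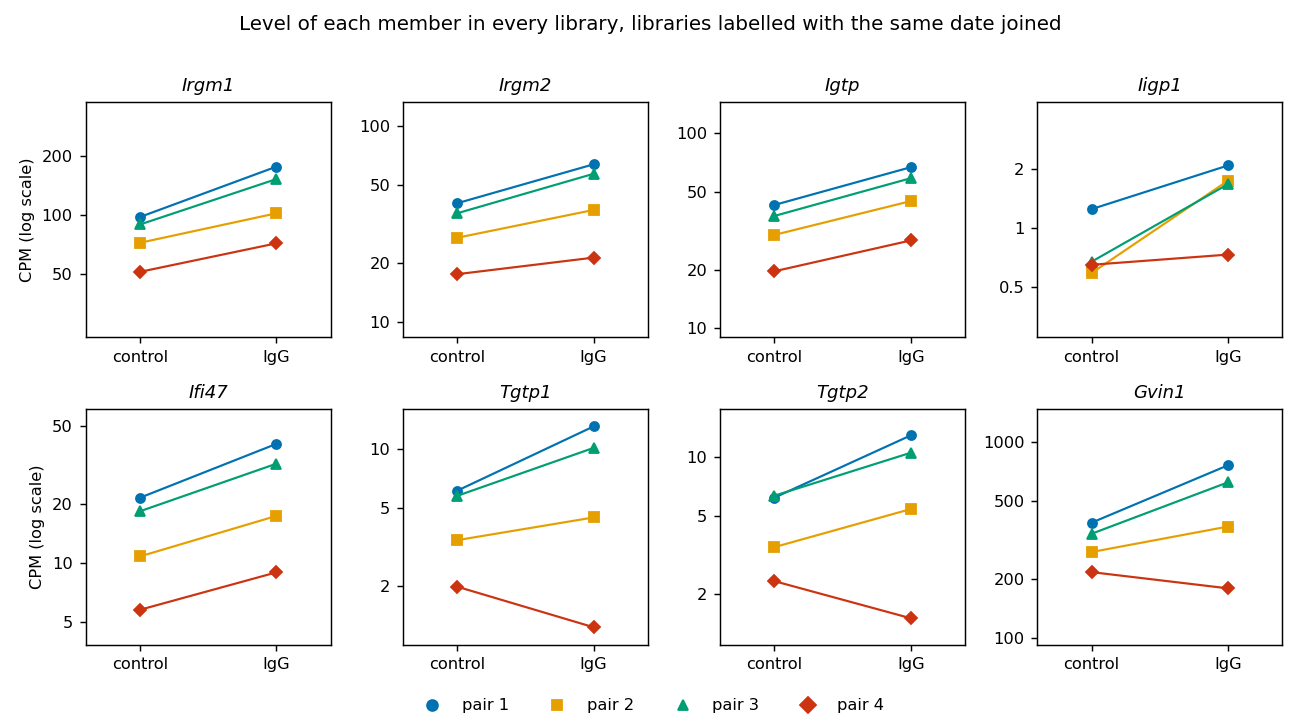
Counts scaled to library size (CPM, log scale) of each member in the 4 control and 4 IgG libraries, with the libraries of a pair joined by a line and every panel spanning the same 16-fold range. The lines of all 4 pairs run upwards for Irgm1, Irgm2, Igtp, Iigp1 and Ifi47, whereas those of pair 4 run downwards for Tgtp1, Tgtp2 and Gvin1.

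Among the regulatory members, Irgm1 lies on chromosome 11 at chr11:48861968-48871683 (mm10, minus strand). Its level in counts scaled to library size (CPM) was 98.0, 72.3, 89.7 and 51.3 in control libraries 1 to 4 and 177, 102, 153 and 71.8 in IgG libraries 1 to 4. The lowest IgG library, that of pair 4, was below 3 of the control libraries but above its own control. Within pairs the log2 difference was 0.85, 0.50, 0.77 and 0.48. The log2 fold change was 0.70 ± 0.28 (SE, n = 4 per group; edgeR quasi-likelihood test, unadjusted p = 0.0327, adjusted p = 0.692) without the block. With the block it was 0.65 ± 0.10 (adjusted p = 0.0444), a 1.57-fold rise. Irgm1 shared no stretch of 100 transcript bases with any other annotated gene, so that its count can be read as that of a single gene.

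Igtp and Irgm2 are neighbours on the plus strand of chromosome 11. Igtp is annotated at chr11:58199556-58207591, and the GENCODE model of Irgm2, at chr11:58199618-58222782, overlaps it and shares 162 exon bases with it. These are 8.01% of the exon bases of Igtp and 4.39% of those of Irgm2, so that the rows were largely separate. Igtp was measured at 42.8, 30.1, 37.6 and 19.6 CPM in control libraries 1 to 4 and at 66.8, 44.8, 58.7 and 28.2 CPM in IgG libraries 1 to 4. It was higher in each pair, with log2 differences of 0.64, 0.57, 0.64 and 0.52 in pairs 1 to 4. The fitted log2 change was 0.61 ± 0.28 (SE, n = 4 per group; edgeR, adjusted p = 0.692) without the block and 0.60 ± 0.09 (adjusted p = 0.0362) with it. Irgm2 was measured at 40.4, 26.9, 35.9 and 17.5 CPM in the controls and at 63.9, 37.3, 57.2 and 21.3 CPM with IgG. It was higher in every pair, by 0.66, 0.47, 0.67 and 0.28 on the log2 scale. With the block its log2 change of 0.53 ± 0.10 met the criterion (unadjusted p = 0.000827; edgeR) but did not pass adjustment in the quasi-likelihood test (adjusted p = 0.102). The Irgm2 call thus depended on the test used.

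Of the effector members, Ifi47 (chr11:49076587-49096974, plus strand) changed most evenly. It was measured at 21.6, 10.8, 18.4 and 5.77 CPM in control libraries 1 to 4 and at 40.7, 17.4, 32.2 and 8.97 CPM in IgG libraries 1 to 4. The pairs differed widely in level but not in the change, which was 0.91, 0.68, 0.80 and 0.63 on the log2 scale. Accordingly, the test without the block gave 0.81 ± 0.48 (SE, n = 4 per group; edgeR, unadjusted p = 0.125, adjusted p = 0.704), and the fit with the block gave 0.77 ± 0.10 (adjusted p = 0.0327). The estimate without the block fell to 0.46 without IgG library 1 and rose to 1.09 without control library 1. Ifi47 shares 111 exon bases with the olfactory receptor gene Olfr56 on the same strand and 106 with the pseudogene Gm12188 on the other strand. Whether strand was used in counting is not given in the sources used here, so this small part of its count is uncertain.

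Iigp1 (chr18:60376027-60392634, plus strand) was barely expressed. Its counts were 30, 13, 16 and 15 in the controls and 45, 40, 34 and 16 with IgG, which correspond to 1.24, 0.586, 0.670 and 0.646 CPM against 2.08, 1.74, 1.67 and 0.728 CPM. The IgG libraries of pairs 1, 2 and 3 were above every control, whereas that of pair 4 was within the range of the controls. The log2 differences were 0.70, 1.44, 1.21 and 0.15. The estimated change of 0.97 ± 0.37 (SE, n = 4 per group; edgeR, unadjusted p = 0.0253) was nominally the largest of the members, at 1.96-fold, and its within-pair values ranged more widely than those of every member but the Tgtp genes. With the block it was 0.96 ± 0.30 (unadjusted p = 0.0119, adjusted p = 0.364), which met neither threshold in the quasi-likelihood test. In edgeR's likelihood ratio test with the block, Iigp1 met the criterion (unadjusted p = 0.00179, adjusted p = 0.0782), as did 1.98% of genes on the higher side.

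Tgtp1 (chr11:48985327-48994172, minus strand) and Tgtp2 (chr11:49057194-49064206, minus strand) are near-identical copies. Of the 100-base stretches in their transcripts, 70.3% of those of Tgtp1 occur in Tgtp2 and 76.8% of those of Tgtp2 occur in Tgtp1. The rows therefore give a single result for the pair of copies rather than 2, and the ratio of their counts stayed between 0.989 and 1.22 in all libraries. Tgtp1 was measured at 6.14, 3.43, 5.78 and 1.98 CPM in control libraries 1 to 4 and at 13.1, 4.48, 10.2 and 1.23 CPM in IgG libraries 1 to 4. Tgtp2 was measured at 6.22, 3.47, 6.36 and 2.33 CPM in the controls and at 12.9, 5.43, 10.6 and 1.50 CPM with IgG. IgG library 4 was below every control library for both genes, while IgG libraries 1 and 3 were above every control library. The log2 differences of Tgtp1 were 1.08, 0.38, 0.80 and -0.65, and those of Tgtp2 were 1.05, 0.63, 0.72 and -0.60. Neither gene met a threshold, at 0.53 ± 0.26 for Tgtp1 (SE, n = 4 pairs; edgeR with the block, adjusted p = 0.524) and 0.55 ± 0.24 for Tgtp2 (adjusted p = 0.497). Their counts in pair 4 were low, 46 against 27 for Tgtp1 and 54 against 33 for Tgtp2.

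Gvin1 (chr7:106156556-106215326, minus strand) was measured at 388, 275, 341 and 217 CPM in control libraries 1 to 4 and at 764, 371, 625 and 179 CPM in IgG libraries 1 to 4. As for the Tgtp genes, IgG library 4 was the lowest of all 8 libraries. The log2 differences were 0.97, 0.43, 0.87 and -0.28 in pairs 1 to 4. The fitted log2 change was 0.67 ± 0.38 (SE, n = 4 per group; edgeR, adjusted p = 0.697) without the block and 0.51 ± 0.19 (adjusted p = 0.459) with it. Gvin1 is not separable from its copies, because 97.8% of its 100-base stretches occur in another annotated gene and 96.7% in Gm4070. The count of Gm4070 was 1.04 to 1.05 times that of Gvin1 in every library. Whether reads that fit several copies were counted in each of them is not given in the sources used here.

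**Figure D2:**
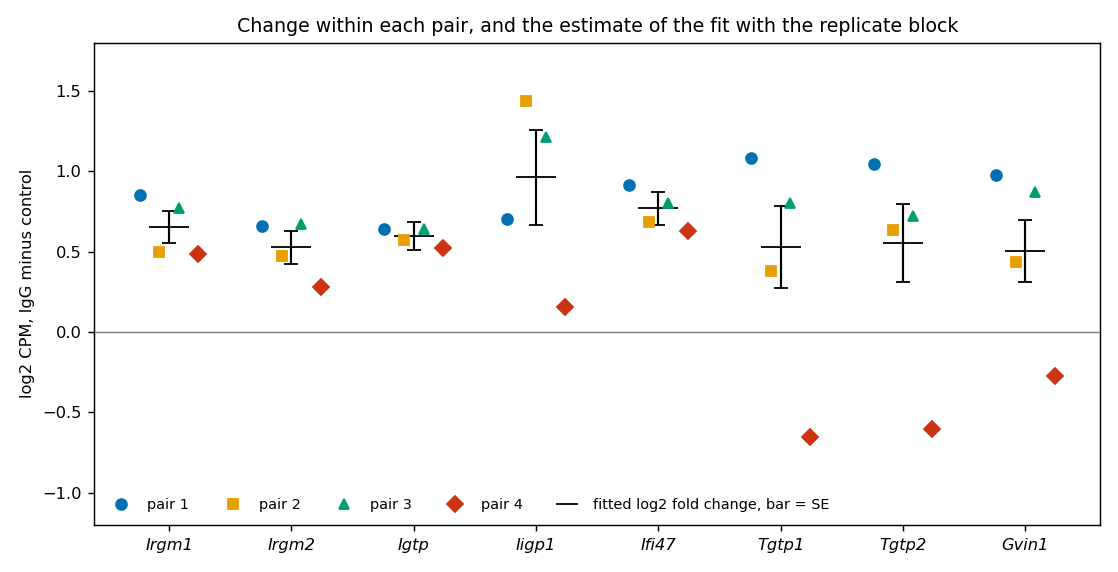
Difference in log2 CPM between the IgG and the control library of each pair (coloured symbols) and the log2 fold change of the fit with the replicate block (black line, bar = SE) for each member. Pairs 1 to 3 are above 0 for all 8 members, and pair 4 runs from 0.63 for Ifi47 to -0.65 for Tgtp1.

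Pair 4 thus divided the members. Without it, all 8 members met the criterion in the fit with the block, 5 of them with an adjusted p under 0.05 (Irgm1, Irgm2, Igtp, Ifi47 and Gvin1), and the median log2 fold change was 0.76. Of all genes tested in that fit, 2.43% met the criterion and 0.974% passed adjustment on the higher side. When pair 1, 2 or 3 was left out instead, 3, 4 and 3 members met the criterion, as did 1.08%, 1.4% and 1.1% of genes. None of the members passed adjustment in edgeR's quasi-likelihood test in these 3 fits, where few of all genes did (0.0794%, 0.0% and 0.0908%). Without the block, leaving out only IgG library 4 raised the number of members that met the criterion from 0 to 4 (Irgm1, Igtp, Iigp1 and Gvin1), while the share of all genes that met it on the higher side rose to 2.56%.

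IgG libraries 1 and 3 stood apart from the other 6. Mitochondrial genes took 4.85% and 5.59% of their counts, against 1.97% to 2.41% in the others. Changes within pairs 1 and 3 also depended on the base composition of the gene. Over 17503 genes, the Spearman correlation of the change with GC content was -0.40 in both of these pairs, -0.04 in pair 2 and 0.32 in pair 4. With exon length it was 0.21 in both, -0.03 in pair 2 and -0.35 in pair 4. Genes are not independent in these correlations. The part of the mitochondrial share in the members' values was not tested. Members ranged from 39.4% GC for Iigp1 and 40.3% for Gvin1 to 49.8% for Igtp. In the fit restricted to pairs 2 and 4, Irgm1 changed by 0.49 on the log2 scale with the block (edgeR, adjusted p = 0.0495). Igtp was at 0.55 (adjusted p = 0.018) and Ifi47 at 0.66 (adjusted p = 0.0275). Irgm2 was at 0.38 there (adjusted p = 0.348). In that fit 2 members, Igtp and Ifi47, met the criterion, while Irgm1 was just under its 0.5. Over all genes 1.17% met it and 0.867% passed adjustment on the higher side. By contrast, Tgtp1, Tgtp2 and Gvin1 were at -0.04, 0.12 and 0.08 there. All values of that fit rest on 2 pairs. With pair 1 or pair 3 alone left out, no member passed adjustment in edgeR's quasi-likelihood test, so the fit does not settle what pairs 1 and 3 contribute.

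When each library was corrected for its trends on GC content and exon length, the changes in pairs 1, 3 and 4 moved closer together in 7 of the 8 members. The exception was Igtp, in which the range of these pairs widened from 0.12 to 0.27 on the log2 scale. The correction removes trends that ran in opposite directions in pairs 1 and 3 and in pair 4. The share of all genes in which these pairs moved closer was not counted, so the members' number cannot be weighed. The median within-pair change of the members was 0.88, 0.54, 0.79 and 0.22 before the correction and 0.69, 0.54, 0.62 and 0.38 after it, in pairs 1 to 4. Gvin1 moved from -0.28 to 0.11 in pair 4 and from 0.97 to 0.62 in pair 1, and was then higher with IgG in all 4 pairs. Its log2 change was 0.41 ± 0.09 with the block and the correction (edgeR, adjusted p = 0.0954). The Tgtp genes stayed lower in pair 4, at -0.58 and -0.53. With the correction, Irgm1, Irgm2, Igtp and Ifi47 had an adjusted p under 0.05, and the criterion was met by 3 of these, since Irgm2 was at 0.48. Calls also became more frequent over all genes, of which 1.15% passed adjustment and 1.51% met the criterion on the higher side. With the block and no filter on low counts, 6 members met the criterion and 5 passed adjustment, beside 1.19% and 0.972% of genes on the higher side. With the block and scaling by total counts alone, 2 members met the criterion, beside 0.981% of genes, and none passed adjustment in edgeR's quasi-likelihood test, beside 0.211%. Without the block and without the filter, 1 member met the criterion, beside 0.663% of genes.

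**Figure D3:**
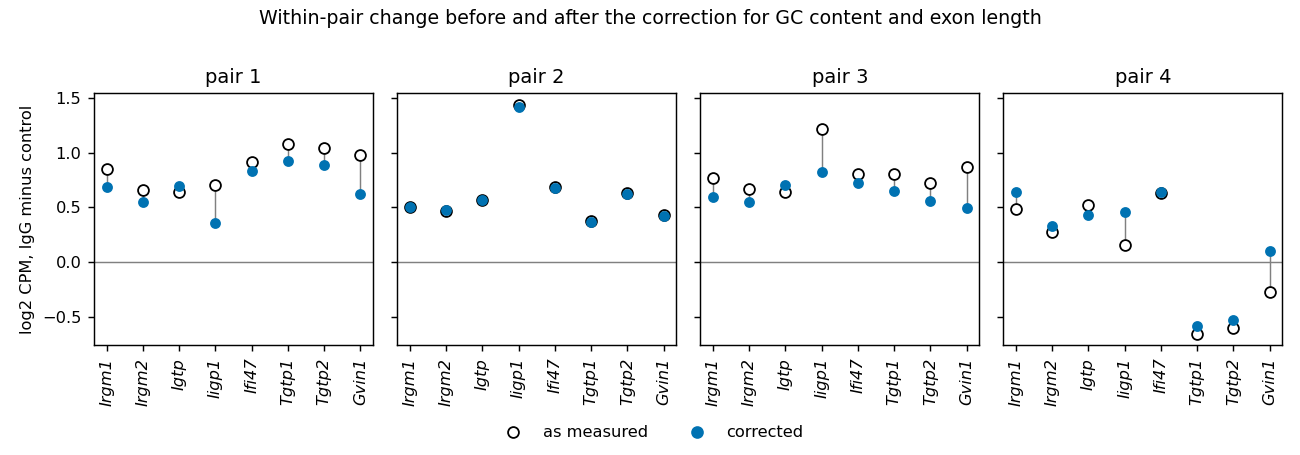
Log2 CPM of IgG minus control for each member in each pair, as measured (open circles) and after correction for trends on GC content and exon length (filled circles). The correction hardly moved pair 2, brought Gvin1 in pair 4 from -0.28 to 0.11, and left Tgtp1 and Tgtp2 below 0 there.

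The control libraries already differed in these genes. Across the 4 control libraries the highest CPM of a member was 1.79 times (Gvin1) to 3.74 times (Ifi47) the lowest, where the median over 17531 tested genes was 1.23. Control library 1 was the highest for 7 members and control library 4 the lowest for 7. With IgG, library 1 was the highest and library 4 the lowest for all 8 members. In 6 members the controls followed the order of libraries 1, 3, 2 and 4, and in 7 members the IgG libraries did. For each member this ratio exceeded its fold change with IgG, which was 1.49 for Irgm2 to 1.96 for Iigp1 without the block. The labels do not say what the dates stand for, and the source of the differences between libraries was not tested. The number of expressing cells and the RNA per cell cannot be told apart in bulk RNA.

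To compare the members in level, CPM was divided by the kilobases of exon (RPKM). In control libraries Gvin1 was at 33.9 ± 8.34 RPKM (SD, n = 4), Igtp at 16.1 ± 4.98, Irgm1 at 13.4 ± 3.55, Irgm2 at 8.18 ± 2.75, Ifi47 at 5.72 ± 2.91, Tgtp2 at 1.56 ± 0.686, Tgtp1 at 1.35 ± 0.616 and Iigp1 at 0.135 ± 0.0527. Among the members, the regulatory genes were thus above the effector genes. This order was the same in all 8 libraries, IgG included. Across control libraries, however, the ranges of most neighbours overlapped. Only Gvin1 and Igtp, Ifi47 and Tgtp2, and Tgtp1 and Iigp1 were separate. Whether the level of Gvin1 includes reads of its copy Gm4070 is not given in the sources used here, so its place in this order is uncertain. With IgG, the means were 53.8 RPKM for Gvin1, 24.5 for Igtp, 21.7 for Irgm1 and 0.267 for Iigp1, so that Iigp1 remained the lowest.

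The promoters of the members were also compared. RefSeq windows of 300 bases (GRCm38.p6), from 250 bases before the start of the gene to 50 after it, were available for 6 of the 8 members, all on chromosome 11. They were searched on both strands for the letters TTCNNNGAA, the GAS element of interferon-responsive promoters, and GAAANNGAA, the core of the ISRE element found in promoters of interferon-stimulated genes. The stretches around the matches are shown with both motifs in capitals, 5′ to 3′ on the strand of the gene. They cover chr11:48871416-48871476 (Irgm1), chr11:58214887-58214947 (Irgm2), chr11:58199496-58199556 (Igtp), chr11:48992289-48992349 (Tgtp1) and chr11:49064248-49064308 (Tgtp2).
Irgm1: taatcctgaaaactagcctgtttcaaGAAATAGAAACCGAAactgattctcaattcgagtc
Irgm2: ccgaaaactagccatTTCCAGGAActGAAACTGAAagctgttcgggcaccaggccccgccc
Igtp: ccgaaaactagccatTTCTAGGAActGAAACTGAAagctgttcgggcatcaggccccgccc
Tgtp1: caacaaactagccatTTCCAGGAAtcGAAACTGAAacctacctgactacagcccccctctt
Tgtp2: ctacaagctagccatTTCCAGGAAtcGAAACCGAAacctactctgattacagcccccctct

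The ISRE core letters occurred in 5 of the 6 member windows, against 8.56% of 32851 promoter windows in the table. GAS letters occurred in 4 of the 6, against 8.3%. In Irgm2, Igtp, Tgtp1 and Tgtp2 the GAS match began 11 bases before the ISRE core match. This spacing was noticed in the printed windows, and only 8 windows of the table (0.0244%) hold it on either strand. They belong to those 4 members, to Gm12185, an IRG family gene whose RefSeq window, chr11:48927133-48927432, lies apart from that of Tgtp1, and to Adar, Olfr382 and LOC115488470. Irgm2 and Igtp are alike over the whole stretch, as are Tgtp1 and Tgtp2, and Gm12185 shares transcript sequence with both of the latter, so these are not independent occurrences. Irgm1 had overlapping ISRE cores, 30 to 16 bases before the start, and no GAS match. Ifi47 had neither set of letters in its window. Whether these letters bear on the levels or changes of the members was not tested.

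**Figure D4:**
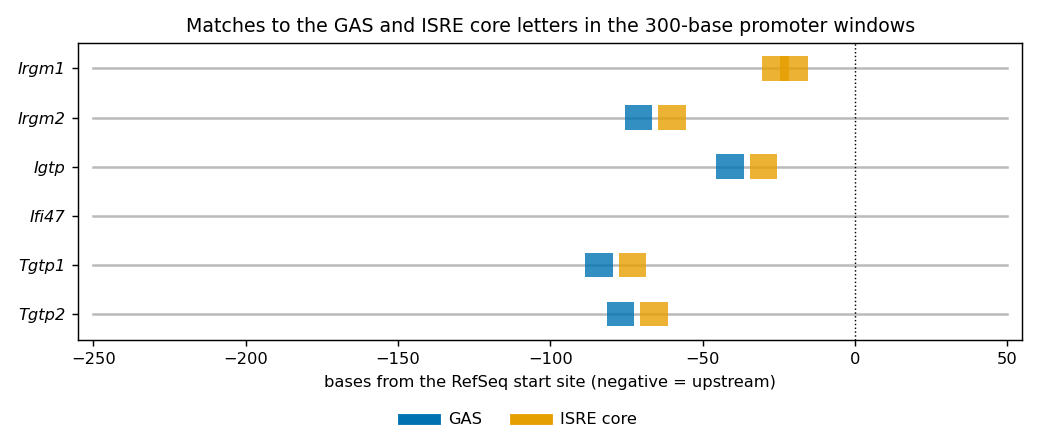
Position of the letters of the GAS element (blue) and of the ISRE core (orange) in the promoter windows of 6 members, in bases from the RefSeq start site, which is counted as 0. The matches lie between 88 and 16 bases before the start, and Ifi47 has none.

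The genes whose log2 CPM followed the mean profile of the members most closely over the 8 libraries were Parp14 (Pearson r = 0.998), Samhd1 (0.997), Ifi203 (0.996), Tbc1d2b (0.996) and A930037H05Rik (0.995). These correlations combine the differences between dates with that between control and IgG libraries, and they are given as a description. Among the members, the correlation with the profile they themselves define ran from 0.869 for Iigp1 to 0.995 for Irgm2. Parp14 encodes an ADP-ribosyltransferase, and Samhd1 a dNTP hydrolase that restricts viruses. Parp14 was measured at 385, 263, 316 and 182 CPM in the controls and at 675, 372, 577 and 202 CPM with IgG, and thus had the same order of libraries as most members.

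Further IRG gene models were also divided in pair 4. Of 11 listed, 7 were tested and 3 met the criterion on the higher side in the fit with the block. Gm12250 (Irgb10), an effector, is annotated by GENCODE as a processed pseudogene. It was measured at 9.37, 3.97, 8.83 and 2.80 CPM in the controls and at 24.8, 9.00, 23.4 and 5.10 CPM with IgG. Its levels were higher in every pair, and its log2 change of 1.24 ± 0.14 (SE, n = 4 pairs; edgeR with the block, adjusted p = 0.0145) was above that of each member. Gm4951 and Gm12185 met the criterion without passing adjustment, at 0.89 ± 0.21 (adjusted p = 0.195) and 0.61 ± 0.18 (adjusted p = 0.343). Gm5431 was at 0.36 (adjusted p = 0.508). The highly expressed copies 9930111J21Rik1 and 9930111J21Rik2 differed by -1.11 and -0.91 on the log2 scale in pair 4 and by 0.15 to 0.66 in the other pairs. Irgq, a divergent family member, was at -0.07 (adjusted p = 0.825). The remaining gene models, Gm4841, F830016B08Rik, Gm12187 and Irgc1, had at most 16 counts in a library.

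Of 6 giant GTPase gene models in the table, 1, the pseudogene Gm8989, met the criterion with the block at 0.69 ± 0.20 (edgeR, adjusted p = 0.342). The median was 0.59. In pair 4, 5 of the 6 were lower with IgG as measured and 3 after the GC and length correction. Gm8979 was at 0.67 (adjusted p = 0.396) and Gm4070 at 0.51 (adjusted p = 0.459). These models share sequence and are not separate results.

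The guanylate-binding proteins, large GTPases that act with the IRG proteins on vacuoles, were mostly higher with IgG. In 9 of 11 all 4 pairs were higher with IgG, and the median log2 fold change was 0.86 with the block. The criterion was met by 7 of the 11 with the block. None passed adjustment in edgeR's quasi-likelihood test with the block, whereas 6 did after the GC and length correction and 8 in the likelihood ratio test, which passed 1.6% of all genes on the higher side. Without the block, 4 had an unadjusted p under 0.05. Gbp2 was at 0.77 ± 0.15 (SE, n = 4 pairs; edgeR with the block, adjusted p = 0.107), Gbp5 at 0.92 ± 0.20 (adjusted p = 0.166) and Gbp6 at 0.98 ± 0.17 (adjusted p = 0.0653). In pair 4 only 1 of the 11 was lower.

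Upstream of these genes, transcripts of interferon ligands were scarcely detected after 24 h. Of 9 ligand genes, 8 had 0 counts in every library, Ifng among them, which at this depth allows up to 0.127 to 0.141 CPM per library. Ifnb1 had 1 count in control library 2 and 3 counts in IgG library 2. In the medium of such cultures, the study measured interferon-β protein by ELISA and reported secretion with IgG. RNA counts at 24 h do not measure that protein. None of 7 receptor and JAK kinase genes met the criterion, and their median log2 fold change was 0.16. Ifnar2, Ifngr2 and Jak2 were at 0.16, 0.17 and 0.20 with adjusted p of 0.552, 0.540 and 0.608 (edgeR with the block).

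Of the interferon regulatory factors, Irf7, the factor that amplifies type I interferon production, was measured at 179, 103, 153 and 55.5 CPM in the controls and at 372, 213, 332 and 137 CPM with IgG. Its log2 change was 1.13 ± 0.09 (SE, n = 4 pairs; edgeR, adjusted p = 0.00593) with the block, and its increase in pair 4 was 1.30 as measured and 1.13 after the GC and length correction. Irf9 was at 0.25 (adjusted p = 0.423). Irf1, which interferon-γ induces strongly, was at -0.07 ± 0.11 (adjusted p = 0.826), with within-pair values of -0.25, 0.02, -0.31 and 0.25.

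Of 6 negative regulators of interferon signalling, Usp18, which blocks the type I receptor, rose by 0.68 ± 0.10 (edgeR with the block, adjusted p = 0.035). Socs1, an inhibitor of JAK kinases, was lower in all 4 pairs at 0.97 to 1.87 CPM with IgG and 1.89 to 2.82 CPM in the controls. In edgeR's quasi-likelihood test it met the criterion on the lower side without the block, at -0.76 (unadjusted p = 0.00945), but not with it, at -0.77 (unadjusted p = 0.0206, adjusted p = 0.412). Ptpn6 was at 0.22 (adjusted p = 0.487).

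None of the 10 tested genes for ATG conjugation and ATG8 proteins, which direct effector GTPases to their target membranes, met the criterion, and their median log2 fold change was 0.02. Atg5, Gabarap and Gabarapl1 were at 0.23, 0.17 and -0.22, with adjusted p of 0.499, 0.556 and 0.475 (edgeR with the block). None of 7 tested genes for ubiquitin ligases and adaptors met the criterion either, with a median of 0.06. Trim21 was at 0.20 (adjusted p = 0.532) and Traf6 at 0.10 (adjusted p = 0.795). Rnf213, a giant ubiquitin ligase, was at 0.44 ± 0.16 (adjusted p = 0.454), with within-pair values of 0.72, 0.52, 0.72 and -0.23, the last of which was 0.08 after the GC and length correction.

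**Figure D5:**
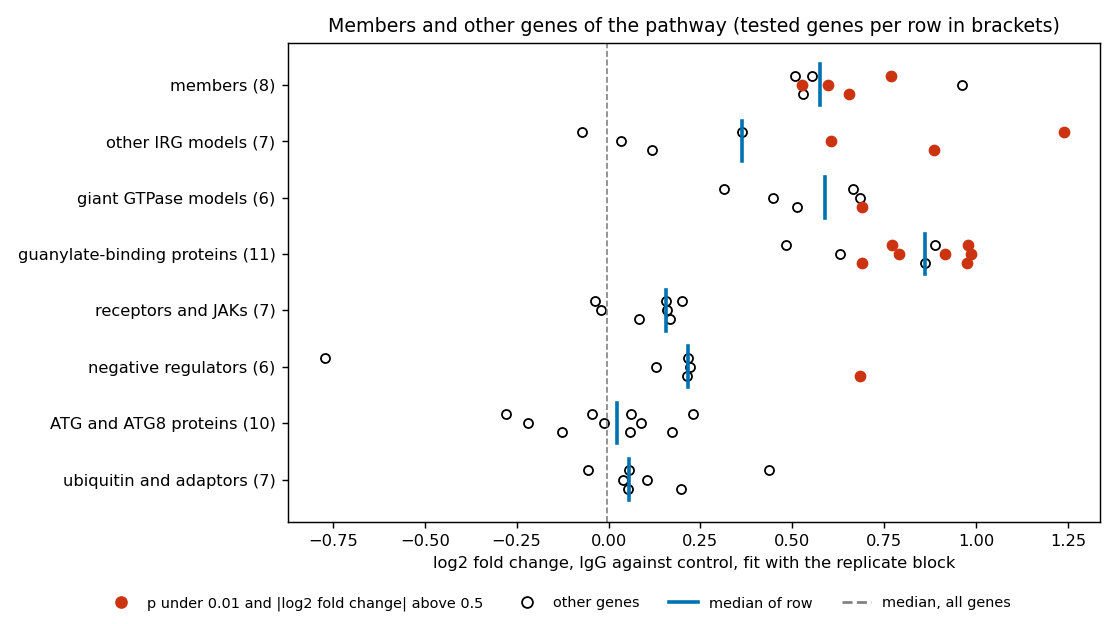
Log2 fold change with the replicate block for the 8 members and for the tested genes of 7 other lists (1 point per gene, blue line = median of the row, dashed line = median of all genes tested). Filled points met the criterion, which 4 members, 3 further IRG models and 7 guanylate-binding proteins did, and no gene among receptors and JAK kinases, ATG proteins or ubiquitin ligases and adaptors.

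Library totals ran from 21287816 to 23703216 counts. Microglial markers summed to 7873 to 8636 CPM in control and 8475 to 9457 CPM in IgG libraries, and all 10 were tested. With the block their log2 fold changes ran from -0.20 for Tyrobp to 0.69 for Aif1, with a median of 0.19, and 4 of the 10 were higher in all 4 pairs. Aif1 rose by 0.69 ± 0.10 (edgeR with the block, adjusted p = 0.0331), from 56.7 to 94.2 CPM in the control group to 108 to 140 CPM with IgG, with no overlap, and it alone of the 10 passed adjustment there. Among markers of other cells, those of the oligodendrocyte lineage (9 genes) summed to 1198 to 1826 CPM in control and 1027 to 1716 CPM in IgG libraries. All 9 had negative log2 fold changes with the block, from -0.50 to -0.01 with a median of -0.12, and none met the criterion. Olig2 was lower with IgG in all 4 pairs. Astrocyte markers (8 genes) summed to 171 to 196 and 149 to 191 CPM, and border-associated macrophage markers (6 genes) to 57.4 to 82.5 and 52.3 to 108 CPM. Of the latter, 4 were tested, with log2 fold changes from -0.31 for F13a1, lower in all 4 pairs, to 1.23 for Cbr2 and a median of 0.17 with the block. Cbr2 alone of them met the criterion (edgeR, adjusted p = 0.22). Sums were 42.8 to 69.5 and 36.9 to 56.3 CPM for neurons (8 genes), 3.52 to 7.01 and 4.85 to 6.43 CPM for fibroblasts and meninges (6 genes), and 6.55 to 10.9 and 5.55 to 14.3 CPM for endothelium (5 genes, Cldn5 at 0). Of the 3 endothelial genes tested, with log2 fold changes of 0.05 to 1.03, Cdh5 alone, with a mean of 0.892 CPM without IgG and 1.76 CPM with it, met the criterion at 0.98 (edgeR with the block, adjusted p = 0.221). Of 10 markers of T and NK lymphocytes, which produce interferon-γ, 8 had 0 counts in every library, Cd3e, Cd8a and Ncr1 among them, and the other 2, Cd4 and Klrb1c, brought the sum to 1.4 to 3.4 and 2.1 to 2.9 CPM. The part of these cells in the members' levels was not tested.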

How the data were processed

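RNA sequencing counts of 4 control and 4 IgG libraries were used. The authors filtered reads, aligned them to mm10 and deposited raw counts for each Ensembl identifier, with no normalization. The submitters' processing notes name HISAT2 2.2.1 and featureCounts. Strand use and the treatment of reads with several alignments are not given in the sources used here. GENCODE M21 gave symbols, coordinates, GC content and exon length for 55144 of 55385 identifiers, and promoter windows came from RefSeq (GRCm38.p6).

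After TMM scaling and filterByExpr, edgeR's quasi-likelihood test was run on 17537 genes (edgeR 4.0.16, R 4.3.3, group only, Benjamini-Hochberg adjustment). A fit with the replicate block was also run, because control and IgG libraries of the same number share a date. Its values were given beside the others where they changed calls. The pairing rests on the dates in the labels. The deviation from the group mean, over 14458 genes, correlated at 0.41, 0.31, 0.22 and 0.29 between libraries of equal number and at -0.33 to 0.19 between others. Log2 CPM used a prior count of 2. Standard errors were derived from the fold change and the F statistic. GC and length trends were removed by lowess (span 0.3).

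No libraries of a group agreed within sampling noise. The labels do not say how separate the cultures of a group were, so p-values measure the spread between these libraries. Scripts were tested on simulated data. The members and lists were chosen with earlier results of these data known. Named genes were the members, the up to 3 genes of each list with the smallest unadjusted p, Irf1, Ifng, Ifnb1, and the 5 genes most like the members' profile. Others named beside a count (the 9930111J21Rik copies, Irgq, the low IRG models, Olfr56 and single cell type markers, for example) were chosen after their values were seen. A gene withheld from this text, and the counts of the list that holds it, are not reported here. Alternatives were other scalings, filters and tests (DESeq2 1.42.0, limma-voom 3.58.1, likelihood ratio), summed Tgtp rows and the omission of libraries or pairs.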

Additional observations from a re-analysis of the deposited data

How the results depend on the processing

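The members' direction held in every alternative except for Tgtp1, which was at -0.0448 in pairs 2 and 4 with the block. Without the block, the number of members that met the criterion was 0. It was 1 with no filter on low counts, 4 with the replicate block and 3 with the block and the GC and length correction. When a library or pair was left out, it was 0 to 4. It reached 4 without IgG library 4, where 2.56% of all genes met it on the higher side. For the other omissions without the block, the share of all genes was not counted, so the members' counts cannot be weighed. Members past adjustment numbered 0, also whichever library or pair was left out. They numbered 3 with the replicate block and 4 with the block and correction. The median log2 fold change ran from 0.40 (without IgG library 1) to 1.00 (without IgG library 4). Single members ran from 0.46 to 1.09 for Ifi47, 0.49 to 0.89 for Irgm1, 0.41 to 0.80 for Igtp and 0.35 to 0.81 for Irgm2. The ranges were 0.80 to 1.29 for Iigp1, 0.09 to 1.09 for Tgtp1, 0.27 to 1.06 for Tgtp2 and 0.16 to 0.94 for Gvin1. With the block, 4 met the criterion and 3 passed adjustment. These numbers were 0 and 0 with no replicate block, 2 and 0 with scaling by total counts and no TMM, which shifted the median of all genes by -0.10, and 2 and 3 in pairs 2 and 4. With no filter 5 passed adjustment, beside 0.972% of all genes. With the block, 4 and 4 were called by DESeq2 and 5 and 4 by the likelihood ratio test. In limma-voom with the block, the adjusted p was 0.0421 for Irgm1, 0.0366 for Igtp, 0.027 for Ifi47 and 0.092 for Irgm2. When each pair was left out, 3 to 8 met the criterion and 0 to 5 passed adjustment, with medians of 0.53 to 0.76. Adjusted p over the alternatives to the fit with the block ran from 2.17e-05 to 0.692 for Irgm1, 2.53e-05 to 0.692 for Igtp, 1.3e-06 to 0.704 for Ifi47, 0.00252 to 0.704 for Irgm2 and 0.031 to 1.0 for Gvin1. The cause was not tested. Counting error was proportionally largest for Iigp1, Tgtp1 and Tgtp2, the members with the fewest counts in a library (13, 27 and 33). The part of depth in their calls was not tested.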
